A study of Mus musculus with 6 samples.

Results

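The aryl hydrocarbon receptor (AHR) pathway was followed through 8 genes chosen by symbol: the receptor Ahr, its partner Arnt, the repressor Ahrr and the target genes Tiparp, Cyp1a1, Cyp1a2, Cyp1b1 and Nqo1. All 8 were found among the 24369 rows of the read-count table. The RNA came from mouse germinal vesicle oocytes, which are still arrested in the first meiotic prophase, and was sequenced in 6 libraries forming 3 groups of 2. The groups were a melatonin rescue group (Sudan I together with melatonin, the pineal hormone), a group given the azo dye Sudan I alone, and controls. Strain, age, dose, route, duration and oocytes per library are not stated in the sources used here. Whether replicate libraries stem from different animals is likewise unstated, so the p-values reflect the spread among these 6 libraries alone, which may be technical.

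In cells without a ligand the AHR is held in the cytoplasm by a chaperone complex that includes HSP90 and the co-chaperone p23 (Ptges3). A bound ligand, typically a flat aromatic compound such as dioxin or benzo[a]pyrene, sends the receptor to the nucleus, where it pairs with ARNT and binds the DNA core GCGTG near its target genes. The most strongly induced targets are the cytochromes P450 of the CYP1 family, which oxidise many of the same compounds; AHRR and TIPARP are also induced and dampen the receptor in turn. In rodent ovaries the receptor has been tied to follicle loss after exposure to polycyclic aromatic hydrocarbons, and Sudan I is known as an inducer and a substrate of CYP1A1 from work in rat and human cells.

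The pathway was present as a receptor and its partner at moderate levels and 1 very abundant target. Another 2 targets lay below the receptor, and 3 members were at the edge of detection or below it. Those 2 targets, Nqo1 and Cyp1b1, stood at percentiles 59.0 and 31.1 of the tested genes by level per kilobase of exon. The 8 members held 0 to 106148 counts each over the 6 libraries, whose totals ran from 20669373 to 26065453 counts. Of the 8, 6 passed the filter on low counts and were tested among 14124 genes; Cyp1a1 and Cyp1a2 did not. Levels are CPM, counts scaled to a common library size with trimmed mean of M-values (TMM) factors. Levels of different members were compared only per kilobase of exon, whereas marker genes were summed and ordered by CPM. Tiparp averaged 176 CPM per kilobase ± 22.8 (SD, n = 6) and ranked 183 of the 14006 tested genes with a known length. Arnt (11.6 ± 2.15) and Ahr (10.6 ± 1.58) followed, with Nqo1 at 6.41 ± 0.918, Cyp1b1 at 1.25 ± 0.217 and Ahrr at 0.0810 ± 0.0376 CPM per kilobase (SD, n = 6 each). The neighbours Arnt and Ahr did not differ beyond their spread, their ratio per kilobase lying between 0.842 and 1.30 over the 6 libraries. With the longest transcript in place of all exons that ratio was 1.40 to 2.16, so the order of these neighbours rests on the length used. The other steps kept their order in every library by either length: Ahr was on average 1.67 times Nqo1 (SD 0.290, lowest 1.30), Nqo1 was 3.62 to 7.60 times Cyp1b1, and Cyp1b1 was 7.97 to 40.2 times Ahrr per kilobase of all exons.

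Promoter sequence is shown for 4 targets that span this range, from the most abundant member to the one with no reads. The stretches are RefSeq sequence of build GRCm38.p6, run from 250 bases before the RefSeq start site up to the first base that GENCODE places in an exon, and read 5′ to 3′; capitals mark the AHR-ARNT core GCGTG, which reads CACGC where the match is on the other strand. The Tiparp stretch is chr3:65528197-65528409 on the forward strand, the Ahrr stretch chr13:74292332-74292581 on the reverse strand, the Cyp1b1 stretch chr17:79715062-79715311 on the reverse strand and the Cyp1a1 stretch chr9:57697363-57697612 on the forward strand.
Tiparp: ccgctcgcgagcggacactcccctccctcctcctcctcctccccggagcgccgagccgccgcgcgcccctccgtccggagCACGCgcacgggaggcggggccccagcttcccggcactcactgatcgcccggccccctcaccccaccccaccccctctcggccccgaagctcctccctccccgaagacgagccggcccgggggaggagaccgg
Ahrr: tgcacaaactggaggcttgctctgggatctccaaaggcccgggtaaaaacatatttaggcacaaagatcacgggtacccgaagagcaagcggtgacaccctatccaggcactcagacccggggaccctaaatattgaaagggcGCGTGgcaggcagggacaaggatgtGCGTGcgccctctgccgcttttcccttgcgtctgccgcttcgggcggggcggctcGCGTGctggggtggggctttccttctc
Cyp1b1: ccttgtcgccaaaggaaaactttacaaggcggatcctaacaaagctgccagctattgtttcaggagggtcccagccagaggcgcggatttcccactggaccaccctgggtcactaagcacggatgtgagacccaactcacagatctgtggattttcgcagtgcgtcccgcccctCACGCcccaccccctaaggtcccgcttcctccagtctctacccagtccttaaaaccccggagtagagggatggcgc
Cyp1a1: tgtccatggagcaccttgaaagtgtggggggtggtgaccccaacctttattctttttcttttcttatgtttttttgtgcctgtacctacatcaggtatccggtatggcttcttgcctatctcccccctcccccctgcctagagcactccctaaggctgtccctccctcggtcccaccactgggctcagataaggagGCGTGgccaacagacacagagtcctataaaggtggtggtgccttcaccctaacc
The core was searched on both strands of the window from 250 bases before to 50 bases after the start, which was given for 7 of the 8 members. Ahrr held 3 matches, Tiparp, Cyp1b1, Cyp1a1 and Arnt 1 each, and Cyp1a2 and Nqo1 0; among all 32851 promoter windows 32.4% held at least 1. The nearest match lay 54 to 50 bases before the start in Cyp1a1 and 27 to 23 bases before it in Ahrr, and the Tiparp match 170 to 166 bases before. The longer form TNGCGTG was in the Ahrr window alone of the 7, against 5.07% of all windows. The core of the antioxidant response element, TGACNNNGC, which NRF2 binds, matched only in Arnt (2 matches) of the 7, against 12.4% of all windows. The core was thus present before both the most abundant member and the one with no reads, and these short windows leave out the distal enhancers known for the Cyp1 genes.

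The comparison of Sudan I with control oocytes asks whether dye exposure was accompanied by a change in the receptor or its targets. None of the 6 tested members passed the edgeR quasi-likelihood test at an adjusted p under 0.05, and none reached an unadjusted p under 0.05 by edgeR, DESeq2 or limma-voom. Over all 14124 tested genes edgeR and limma-voom each called 0.00708% (1 gene) and DESeq2 0.0779%, while 3.16% (edgeR), 2.75% (DESeq2) and 3.28% (limma-voom) had an unadjusted p under 0.05. Of the 6 members, 2 had positive and 4 negative fold changes, with a median of -0.13 on the log2 scale beside -0.0024 for all tested genes, of which 50.6% were negative. For every member but Ahrr the 95% interval kept inside 1 log2 unit on either side of 0 (5 of 6), as it did for 69.9% of all tested genes.

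**Figure D1:**
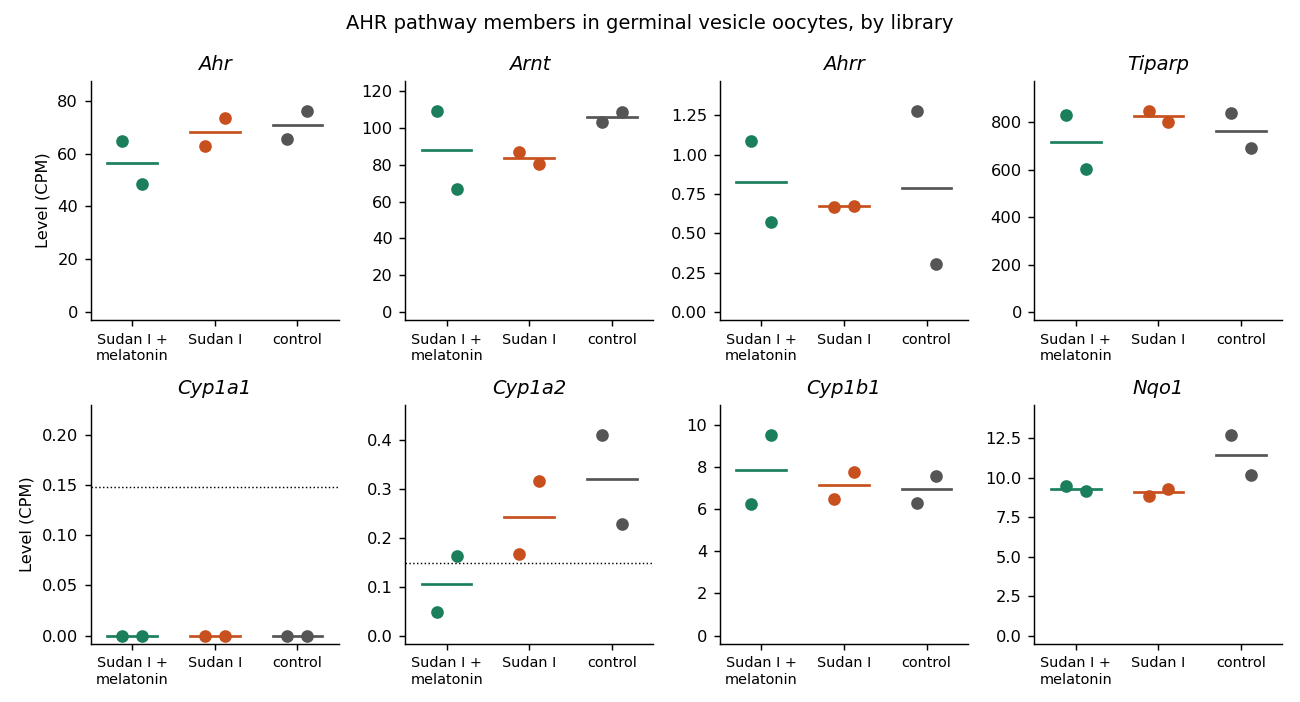
Level of each member (CPM, linear axis) in every library; dots are the 2 libraries of a group, horizontal bars the group means, and the dotted line in the Cyp1a1 and Cyp1a2 panels 0.148 CPM, the highest level that a count of 0 allows in any library. Cyp1a1 sits at 0 in all 6 libraries, and the 4 exposed libraries sit below both control libraries for Nqo1.

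Ahr, the receptor itself, lies on chromosome 12 from 35497974 to 35535038 on the reverse strand (GRCm38, as all positions here except the promoters). It stood at 64.8 and 48.4 CPM in the melatonin libraries, 63.0 and 73.6 CPM in the Sudan I libraries and 65.6 and 76.1 CPM in the control libraries. The Sudan I and control libraries overlapped, and melatonin library 2 was the lowest of the 6. The log2 fold change of Sudan I against control was -0.05 (SE 0.16, 95% interval -0.41 to 0.30, edgeR adjusted p = 0.9999), so folds below 0.752 or above 1.23 lie outside the interval. Ahr was read at 1185 to 1996 counts per library. Its exons share 127 bases with the antisense lincRNA Gm48236, not used here, and no strand setting is known that would part their reads. In bulk libraries such as these, fewer cells of a type and less RNA per cell cannot be told apart.

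Arnt, the partner that AHR needs to bind DNA and that hypoxia-inducible factors also use, lies on chromosome 3 from 95434388 to 95497240. It had 109 and 67.0 CPM in the melatonin libraries, 86.9 and 80.5 CPM in the Sudan I libraries and 103 and 109 CPM in the control libraries. Both Sudan I libraries lay below both control libraries, while the melatonin libraries stood at the top and the bottom of the 6. The log2 fold change of Sudan I against control was -0.34 (SE 0.19, 95% interval -0.76 to 0.07, edgeR adjusted p = 0.9999). Among all tested genes, 15.9% had Sudan I libraries that lay wholly below the control libraries, against 2 of the 6 members, Arnt and Nqo1.

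Ahrr, the repressor that competes with AHR for ARNT and is itself an AHR target, lies on chromosome 13 from 74211118 to 74292331. Only 8 to 28 reads per library fell on it: 22 and 14 with melatonin, 16 and 15 with Sudan I, and 28 and 8 in controls. The control libraries alone spanned the values of the other 4. Its log2 fold change of Sudan I against control was -0.21 (SE 0.75, 95% interval -1.87 to 1.45, edgeR adjusted p = 0.9999), so a rise to 2.73-fold or a fall to 0.274-fold lies within the interval at this depth.

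Tiparp encodes a mono-ADP-ribosyltransferase (PARP7) that is induced by AHR in many mouse tissues and promotes the receptor's breakdown. It lies on chromosome 3 from 65528410 to 65555518 and was the most abundant member, at 830 and 603 CPM in the melatonin libraries, 848 and 803 CPM in the Sudan I libraries and 838 and 691 CPM in the control libraries. The groups overlapped, with control library 1 between the Sudan I libraries. The log2 fold change of Sudan I against control was 0.11 (SE 0.15, 95% interval -0.22 to 0.44, edgeR adjusted p = 0.9999), which puts any rise above 1.36-fold outside the interval. Without strand information reads of Tiparp cannot be told from those of the antisense pseudogene 4931440P22Rik, which shares 223 exon bases with it but had only 2 to 17 counts per library.

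The CYP1 enzymes add oxygen to polycyclic and aromatic compounds and are the usual readout of an active receptor. Cyp1a1, on chromosome 9 from 57687928 to 57703824, had 0 counts in all 6 libraries, which allows a level of up to 0.114 to 0.148 CPM per library (3 counts; counting error only). Cyp1a2 lies on the opposite strand from 57676937 to 57683703, 4224 bases from the GENCODE start of Cyp1a1. The RefSeq start of Cyp1a1, used for its promoter stretch, lies inside that GENCODE gene, just after base 57697612. Cyp1a2 had 1 and 4 counts in the melatonin libraries, 4 and 7 counts in the Sudan I libraries and 9 and 6 counts in the control libraries. The sums were 5, 11 and 15 counts. Both melatonin libraries lay below both control libraries, an order found for 17.0% of all tested genes. The intervals that counting error alone allows overlapped between these melatonin and control libraries. The gene failed the filter, so a difference between groups was not tested. Cyp1a1 and Cyp1a2 have similar coding sequences, so reads could be split between them.

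Cyp1b1, the CYP1 enzyme most associated with tissues outside the liver and with steroid metabolism, lies on chromosome 17 from 79701537 to 79715061. It had 6.22 and 9.51 CPM in the melatonin libraries, 6.49 and 7.75 CPM in the Sudan I libraries and 6.29 and 7.58 CPM in the control libraries. Sudan I and control libraries interleaved, and melatonin library 2 was the highest of the 6. The log2 fold change of Sudan I against control was 0.04 (SE 0.27, 95% interval -0.57 to 0.64, edgeR adjusted p = 0.9999), so a rise above 1.56-fold lies outside the interval.

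Nqo1, a quinone reductase induced by AHR and by NRF2, the antioxidant response factor, lies on chromosome 8 from 107388225 to 107403206. It stood at 9.49 and 9.14 CPM in the melatonin libraries, 8.88 and 9.29 CPM in the Sudan I libraries and 12.7 and 10.2 CPM in the control libraries. All 4 exposed libraries lay below both control libraries, as they did for 6.03% of all tested genes, while 6.12% had all 4 above; no other tested member had either order. The log2 fold change of Sudan I against control was -0.33 (SE 0.21, 95% interval -0.80 to 0.13, edgeR adjusted p = 0.9999). Without control library 1 it was -0.16 and without control library 2 it was -0.49.

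**Figure D2:**
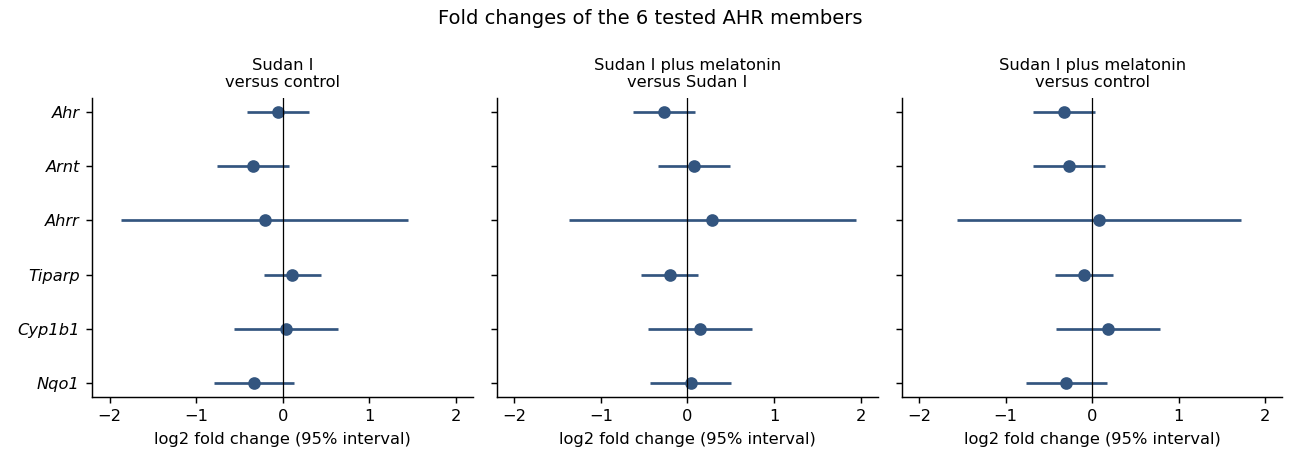
Log2 fold changes (dots) with 95% intervals (lines) of the 6 tested members in the 3 comparisons. Every interval spans 0; the widest belong to Ahrr, which had 8 to 28 counts per library.

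Setting the rescue group against Sudan I alone asks whether melatonin altered the pathway under exposure, and it shares the Sudan I libraries with the comparison above. None of the 6 members was called or had an unadjusted p under 0.05 by edgeR, DESeq2 or limma-voom. Over all tested genes edgeR and limma-voom called 0% and DESeq2 0.0637%, and 3.83% (edgeR), 3.24% (DESeq2) and 3.75% (limma-voom) had an unadjusted p under 0.05. Negative fold changes were found for 2 of the 6, beside 51.2% of all genes, and 5 intervals kept inside 1 log2 unit on either side of 0, beside 70.1%. Ahr ranked first by p in the edgeR test, at -0.27 on the log2 scale (SE 0.16, 95% interval -0.63 to 0.09, edgeR adjusted p = 0.994). Tiparp had -0.20 (SE 0.15), Arnt 0.07 (SE 0.19), Ahrr 0.29 (SE 0.75), Cyp1b1 0.15 (SE 0.27) and Nqo1 0.04 (SE 0.21). For all 6 members the melatonin and Sudan I libraries overlapped, whereas over all tested genes 14.8% had wholly higher and 15.9% wholly lower melatonin libraries.

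The melatonin libraries stood far apart from each other in several members, which the group means hide. Arnt was at 109 CPM in melatonin library 1 and 67.0 CPM in melatonin library 2, Tiparp at 830 and 603 CPM, Ahr at 64.8 and 48.4 CPM, and Cyp1b1, in the other direction, at 6.22 and 9.51 CPM. Without melatonin library 2 the log2 fold change against Sudan I was 0.39 for Arnt, 0.01 for Tiparp, -0.07 for Ahr and -0.19 for Cyp1b1; without melatonin library 1 it was -0.32, -0.45, -0.49 and 0.42. The sign for Arnt, Tiparp and Cyp1b1 therefore depended on which melatonin library was kept. Melatonin library 2 also stood apart by transcript length: its tested genes of at most 2665 exon bases had a median deviation of 0.13 from the 6-library mean on the log2 scale and those of at least 6800 bases -0.10, against -0.04 to 0.02 and -0.03 to 0.04 in the other 5 libraries. The exons of Ahr cover 6163 bases, of Arnt 8007, of Cyp1b1 5840 and of Tiparp 4358 bases. Only Arnt thus belongs to the long class, while Ahr, Cyp1b1 and Tiparp belong to neither class. The part of this length difference in the member values was not tested.

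Setting the rescue group against controls asks what remained apart under melatonin, and shares the control libraries with the first comparison. None of the 6 members was called or had an unadjusted p under 0.05 by edgeR, DESeq2 or limma-voom. Over all tested genes edgeR and limma-voom each called 0.00708% (1 gene), DESeq2 called 0.0921% of the 13028 genes to which it gave an adjusted p, and 4.60% (edgeR), 3.89% (DESeq2) and 4.75% (limma-voom) had an unadjusted p under 0.05. Negative fold changes were found for 4 of the 6, beside 51.1% of all genes, and 5 intervals kept inside 1 log2 unit on either side of 0, beside 68.8%. Ahr again ranked first by p, at -0.33 on the log2 scale (SE 0.16, 95% interval -0.68 to 0.03, edgeR adjusted p = 0.956), and was -0.13 without melatonin library 2. Nqo1 had -0.30 (SE 0.21; -0.13 without control library 1 and -0.45 without control library 2) and Arnt -0.27 (SE 0.19; 0.04 without melatonin library 2), beside -0.09 (SE 0.15) for Tiparp, 0.08 (SE 0.74) for Ahrr and 0.18 (SE 0.27) for Cyp1b1. Melatonin libraries lay wholly below the control libraries for Ahr and Nqo1, 2 of 6 members, beside 17.0% of all tested genes.

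The libraries were checked against markers of the oocyte and of the cells that surround it. The 12 oocyte markers were all detected and summed to 26579 to 28908 CPM, led by Gdf9 at 6177 and Padi6 at 4683 CPM. The 18 cumulus and granulosa markers summed to 675 and 727 CPM in the melatonin libraries, 672 and 672 CPM in the Sudan I libraries and 653 and 700 CPM in the control libraries, with 0 of the 18 at 0 in all libraries and Serpine2 and Nr5a2 (282 and 118 CPM) the most abundant. These sums rest on a few abundant genes and do not show that granulosa RNA was even across libraries. Inha, an inhibin subunit, had 27.8 and 92.9 CPM in the melatonin libraries, 41.5 and 21.1 CPM in the Sudan I libraries and 41.8 and 56.7 CPM in the control libraries. Amh, the anti-Müllerian hormone gene, had 5.24 and 21.7 CPM in the melatonin libraries, 7.87 and 6.85 CPM in the Sudan I libraries and 19.2 and 21.2 CPM in the control libraries. Of 17 tested granulosa markers 7 were higher and 10 lower in Sudan I against control (median -0.10), and none was called. An unadjusted edgeR p under 0.05 was reached by 3, all lower with Sudan I. They were Amh at -1.46 (SE 0.47), Wt1 at -1.64 (SE 0.47) and Ihh at -1.35 (SE 0.59) on the log2 scale. The highest of the 17 was Ptgs2 at 1.38 (SE 0.69). Inha, Amh, Wt1, Ihh and Ptgs2 were picked after their values were seen, and the part of granulosa RNA in the member values was not tested. The 14 theca, stroma and surface epithelium markers summed to 15.1 to 22.5 CPM, highest in melatonin library 2, and Krt19 was at 0; the 8 endothelial markers summed to 118 to 151 CPM, led by Pecam1 at 86.2 CPM. The 10 blood and immune markers summed to 0.857 to 1.69 CPM, with the 4 globin genes and Cd3e at 0. Cyp1b1 was highest in melatonin library 2, as were the granulosa sum and the theca and stroma sum; the part of those cells in the Cyp1b1 value was not tested.

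The genes around the receptor were followed in 8 lists with 102 different tested genes. None of the 102 passed in any comparison, by edgeR or DESeq2. An unadjusted edgeR p under 0.05 was reached by 1 gene (0.980%) in Sudan I against control, 4 (3.92%) in melatonin against Sudan I and 6 (5.88%) in melatonin against control, beside 3.16%, 3.83% and 4.60% of all tested genes. Up to 4 genes of each list, those with the smallest p in Sudan I against control, are named below, and a gene named beyond them was picked for its role or level after its values were seen.

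**Figure D3:**
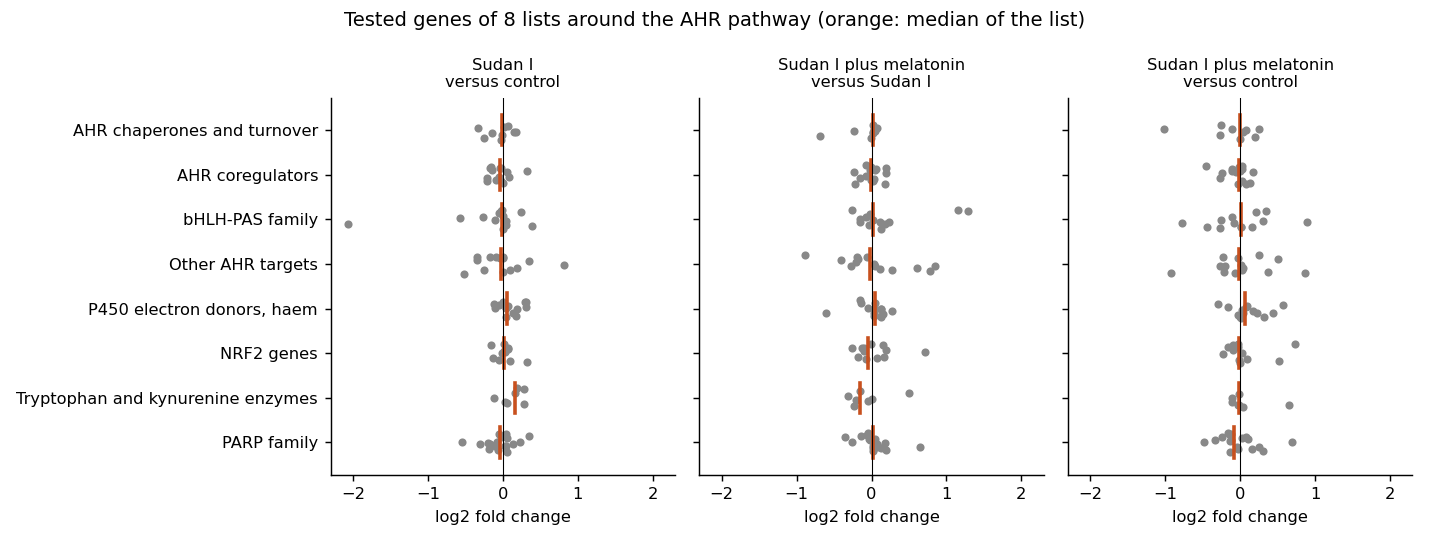
Log2 fold changes of the tested genes of each list in the 3 comparisons; grey dots are genes and orange bars the list medians. The medians run from -0.15 to 0.16, and Arnt2 at -2.07 in Sudan I against control is the point farthest from 0.

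RNA was detected for all 9 listed genes of proteins that hold or destroy the receptor, lowest for Src at 1.38 CPM. Protein was not measured. Hsp90aa1 and Hsp90ab1, the HSP90 chaperones, averaged 1998 CPM ± 176 and 702 CPM ± 31.1 (SD, n = 6), and Ptges3 55.3 ± 6.66 CPM. Cul4b, the scaffold of a ubiquitin ligase in which AHR can act as the substrate adaptor, averaged 430 CPM ± 50.3 and its partner Ddb1 791 CPM ± 36.0. In Sudan I against control 4 of the 9 were higher and 5 lower (median -0.01), with Ptges3 at -0.26 (SE 0.14), Cul4b at -0.14 (SE 0.14) and Stub1, a ubiquitin ligase of chaperone clients, at 0.18 (SE 0.19). Hsp90aa1 stood at 1784 and 1778 CPM in the melatonin libraries, 2109 and 2075 CPM in the Sudan I libraries and 2043 and 2200 CPM in the control libraries. Both melatonin libraries lay below the other 4, by -0.23 on the log2 scale against Sudan I (SE 0.09, edgeR adjusted p = 0.994) and by -0.25 against control (SE 0.09, edgeR adjusted p = 0.956). Taken singly, these orders were found for 15.9% (against Sudan I) and 17.0% (against control) of all tested genes, and the share with both was not counted.

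Of the 15 coregulators 4 were higher and 11 lower in Sudan I against control, with a median of -0.05. Examples are the coactivator Ncoa2 at -0.17 (SE 0.15), the corepressor Nrip1 at -0.22 (SE 0.20), and Relb, an NF-κB subunit that can pair with AHR, at 0.32 (SE 0.26). Without control library 2 the split was 8 higher, and without Sudan I library 2 it was 7 higher. The range over the 15 was -0.22 to 0.32.

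AHR and ARNT belong to the bHLH-PAS family, whose members pair with one another, and 16 of its genes including Ahr, Arnt and Ahrr were tested. Hif1a, the hypoxia factor that also pairs with ARNT, led at 44.0 CPM per kilobase, followed by the clock genes Per3 (19.0) and Arntl (15.3) and by Hif3a (11.6). Arnt and Ahr ranked 5 and 6 of 16, and Ahrr 15; by longest transcript the ranks were 4, 7 and 14. Arnt2, which can stand in for Arnt, was lowest of the 16 at 0.0582 CPM per kilobase, 65 counts in all. Of the 13 others 5 were higher and 8 lower in Sudan I against control (median -0.01): Arnt2 had -2.07 (SE 0.91, edgeR adjusted p = 0.9999), Npas3 0.39 (SE 0.36), Hif1a -0.11 (SE 0.11) and Sim2 -0.57 (SE 0.72). Without control library 1 it was 8 of the list that were higher, and without control library 2 it was 3.

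**Figure D4:**
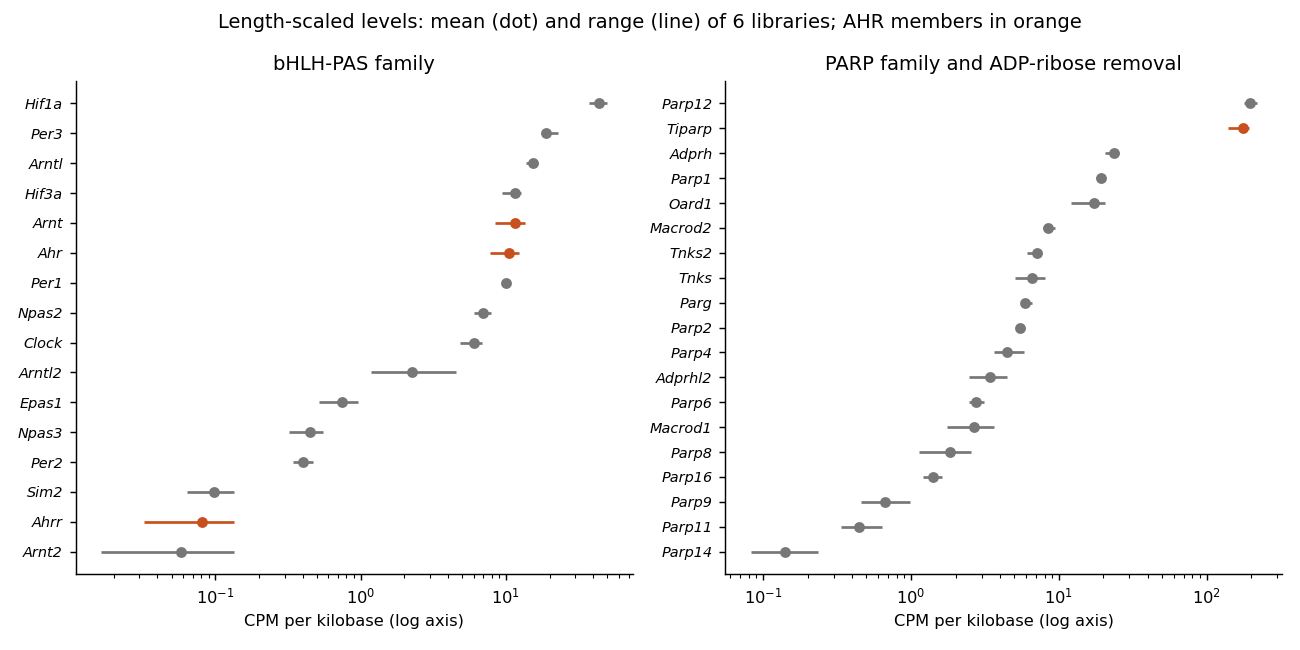
Length-scaled levels (CPM per kilobase of exon, log axis) of the tested bHLH-PAS genes and of the tested PARP family and ADP-ribose genes; dots are means and lines the range of 6 libraries, with AHR members in orange. Arnt and Ahr lie in the upper part of their family at 11.6 and 10.6, and Tiparp at 176 lies next to Parp12 at 197.

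Beyond the members, 14 of 22 further AHR battery and target genes in the table could be tested. The classical battery genes Aldh3a1, Ugt1a6a and Ugt1a6b had 35, 6 and 2 counts over the 6 libraries and were not tested, and Gsta1 averaged 0.645 CPM. Of the 14, 5 were higher and 9 lower in Sudan I against control, with a median of -0.02 and a range of -0.52 to 0.81. Cyp19a1, the aromatase gene, had 0.35 (SE 0.21), Cdkn1b, a cell cycle inhibitor, -0.17 (SE 0.15), Selenbp1 -0.52 (SE 0.52) and Gstm1 0.81 (SE 0.63). Bax, a cell death gene known as an AHR target in mouse oocytes exposed to polycyclic aromatic hydrocarbons, averaged 8.21 CPM ± 1.14 (SD, n = 6); its 95% interval for Sudan I against control was -0.56 to 0.56 on the log2 scale.

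CYP1 enzymes need electrons and haem, and 14 of 15 listed genes of that supply had enough RNA to be tested. Por, the reductase that feeds microsomal P450s, averaged 69.5 CPM ± 5.24 and Cyb5a, cytochrome b5, 118 CPM ± 11.8 (SD, n = 6). Of 14 tested genes 11 were higher and 3 lower in Sudan I against control (median 0.05), with Cyb5a at 0.19 (SE 0.10), Alad 0.30 (SE 0.23), Uros 0.31 (SE 0.26) and Fech 0.17 (SE 0.16), the last 3 being enzymes of haem synthesis; without Sudan I library 2 only 7 were higher. Cyb5a had 134 and 127 CPM in the melatonin libraries, 119 and 121 CPM in the Sudan I libraries and 102 and 108 CPM in the control libraries. The melatonin libraries lay above all others, with a log2 fold change against control of 0.31 (SE 0.10, edgeR adjusted p = 0.956). Wholly higher melatonin libraries were found for 14.8% of all tested genes against Sudan I and 16.5% against control, and the share with both was not counted.

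Nqo1 shares its other regulator with the NRF2 genes, of which 8 of 12 tested were higher and 4 lower in Sudan I against control (median 0.02), and 5 were higher without control library 2. G6pdx, the enzyme that feeds the pentose phosphate pathway, had -0.16 (SE 0.12), Gclc, of glutathione synthesis, 0.09 (SE 0.17), Mafg, a partner of NRF2, -0.14 (SE 0.18) and Nqo2, the paralog of Nqo1, 0.32 (SE 0.34). The gene of NRF2 itself, Nfe2l2, averaged 15.8 CPM ± 1.94 (SD, n = 6).

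Tryptophan-degrading enzymes make kynurenine and related compounds that act as AHR ligands, and levels of their genes ran from no counts to 16.5 CPM for Ccbl2. Ido1, Il4i1 and Haao had 0 counts in all libraries, and Tdo2 and Ido2 averaged 1.41 and 1.51 CPM. Of 7 tested genes 6 were higher and 1 lower in Sudan I against control (median 0.16), with Aadat at 0.28 (SE 0.45), Tdo2 at 0.28 (SE 0.51), Ccbl1 at 0.16 (SE 0.28) and Afmid, at 12.9 CPM, at -0.12 (SE 0.19); without control library 2, 3 were higher.

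Tiparp stood second in the list of ADP-ribosyltransferases and the enzymes that remove ADP-ribose, at 176 CPM per kilobase, after Parp12 at 197 and before Adprh at 23.5 and Parp1 at 19.1. By longest transcript Parp12 and Tiparp again came first and second. Of the 18 other tested genes 8 were higher and 10 lower in Sudan I against control (median -0.04). Parp11 had -0.55 (SE 0.33), Parp4 -0.19 (SE 0.18), Parp8 0.35 (SE 0.36) and Adprhl2, a hydrolase that removes ADP-ribose from serine, -0.30 (SE 0.32).

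In the melatonin comparisons the medians of the 8 lists ran from -0.15 to 0.05 against Sudan I and from -0.08 to 0.06 against control, beside -0.01 for all tested genes in each. The counts higher against Sudan I were 6 of 9 chaperone and turnover genes, 7 of 15 coregulators, 7 of 13 bHLH-PAS genes, 7 of 14 further targets, 10 of 14 electron and haem genes, 5 of 12 NRF2 genes, 2 of 7 tryptophan enzymes and 11 of 18 PARP and ADP-ribose genes. Without melatonin library 2 the chaperone count was 2, the coregulator count 11, the tryptophan count 6 and the PARP count 7. The coregulator count was 3 without Sudan I library 2, and the tryptophan count 1 without melatonin library 1 or without Sudan I library 1. Arntl2, a clock gene of the bHLH-PAS family, had 13.0 and 25.7 CPM in the melatonin libraries, 10.7 and 6.72 CPM in the Sudan I libraries and 14.4 and 6.67 CPM in the control libraries, a log2 fold change against Sudan I of 1.16 (SE 0.40, edgeR adjusted p = 0.994).

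The likeness of other genes to Ahr and Tiparp over the 6 libraries is a description of few points from shared libraries. By Pearson's r on log2 CPM, the named genes most like Ahr were Dnajc5 (0.996), Fbxw11 (0.995) and Tln2 (0.995), and those most like Tiparp were Rpf2 (0.999), Ube2w (0.991) and Gpr1 (0.991). Of 14123 other tested genes 193 (1.37%) reached an r of 0.9 with Ahr and 203 (1.44%) with Tiparp.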

How the data were processed

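RNA from 6 libraries of germinal vesicle mouse oocytes was deposited by the authors as raw read counts per gene symbol, 1 column per library. Per the labels' protocols the libraries followed a standard Illumina preparation; the sources used here name no aligner, counting program, strand setting or genome build. Rows with a date in place of a symbol (27, holding 0.256% of the counts) were kept in the fit and not named.

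Genes were filtered with filterByExpr (minimum count 10), scaled by TMM and tested in 1 edgeR quasi-likelihood fit of all 6 libraries with a mean per group (3 residual degrees of freedom, common biological coefficient of variation 0.167), using R 4.3.3, edgeR 4.0.16, limma 3.58.1 and DESeq2 1.42.0. P-values were adjusted by Benjamini-Hochberg over all 14124 tested genes, with a threshold of 0.05. SE and 95% intervals come from the fitted model. An exact permutation test of 2 against 2 libraries cannot give a two-sided p under 0.333 and was not used. On data simulated for Sudan I against control over 14124 genes, the test recovered 48% of 100 genes changed by 1 and 86% of 100 changed by 2 on the log2 scale. It also called 7 unchanged genes. Simulated counts had the spread typical of genes at their level, not the spread of each gene, and only Sudan I libraries were changed. Recovery in the real libraries may therefore differ.

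Exon lengths and positions are from GENCODE M21 (GRCm38), which matched 23203 symbols directly and 761 as older symbols and may not be the authors' build; lengths were all exons merged. Promoter sequences are from RefSeq (GRCm38.p6). The members and the gene lists were chosen with earlier results of these data known. Named genes are the 8 members, up to 4 genes per list with the smallest p in Sudan I against control and any list gene past the threshold (there was none), and the 3 tested genes of at least 5 CPM most like Ahr and Tiparp; some genes that this rule names are not reported here. Alternatives were another scaling, library totals, no filter, DESeq2, limma-voom, only the 4 libraries compared, the replicate number as a block, and leaving out each library.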

Additional observations from a re-analysis of the deposited data

How the results depend on the processing

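No tested member passed the threshold under any alternative (0 of 6 in each comparison; smallest adjusted p 0.472), and no list gene did where the lists were rerun. Of 234 member fold changes 216 kept their sign. With the replicate number as a block the counts of called genes were 1 in Sudan I against control, 0 in melatonin against Sudan I and 1 in melatonin against control, as without it; Ahrr in Sudan I against control became 8.8e-04 with the block and 0.17 with limma-voom. Deviations of libraries with the same replicate number in their titles correlated at -0.06 to 0.07 across genes, so these numbers were not taken as pairs. The column headers carry a further set of library codes, whose numbers partly differ from those of the titles. Whether libraries pair by those codes was not tested, and the block does not cover it.

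Leaving out 1 library each, the log2 fold change in Sudan I against control ran from -0.17 to 0.058 for Ahr, -0.92 to 1.13 for Ahrr, -0.021 to 0.26 for Tiparp and -0.10 to 0.18 for Cyp1b1. In melatonin against Sudan I it ran from -0.32 to 0.39 for Arnt, -0.23 to 0.69 for Ahrr, -0.45 to 0.01 for Tiparp (0.0094 at the top) and -0.19 to 0.42 for Cyp1b1. In melatonin against control it ran from -0.66 to 0.042 for Arnt, -0.63 to 1.42 for Ahrr, -0.34 to 0.12 for Tiparp and -0.16 to 0.46 for Cyp1b1. Ahr in both melatonin comparisons, Nqo1 in all 3 and Arnt in Sudan I against control kept their sign. The last reached an unadjusted edgeR p of 0.00807 with only the 4 libraries compared (adjusted p = 0.9998) and of 0.00953 without the filter (adjusted p = 0.616). That 0.616 was its smallest adjusted p over the alternatives. Unadjusted edgeR p-values under 0.05 were also found for Ahr, Arnt and Tiparp in the melatonin comparisons. The smallest came from fits that left 1 melatonin library, and p-values of such fits are not given.

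Over all genes the calls in Sudan I against control, melatonin against Sudan I and melatonin against control were 88, 67 and 93 without the filter, 11, 9 and 12 by DESeq2, and 1 to 4, 0 to 1 and 1 to 3 when 1 library was left out; the cause was not tested. The members with a promoter match fell to 1 with TNGCGTG, against 5 with GCGTG. All 24 group levels stayed within 1 SD under library totals. Depth limits Ahrr, Cyp1a1 and Cyp1a2, whose counts were 28 or fewer per library.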

Other observations

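The Cyp1a1 and Cyp1a2 pair lay between genes with detected RNA. Csk, a tyrosine kinase gene 23306 bases from Cyp1a2, stood at 68.4 to 86.8 CPM over the 6 libraries. On the Cyp1a1 side Edc3, an mRNA decapping factor 4716 bases away, stood at 1.83 to 4.15 CPM and Clk3, a splicing kinase 46800 bases away, at 57.1 to 72.2 CPM. Lman1l, the next gene beyond Csk, had 0 counts in every library. These neighbours were looked up after the values of the pair were seen.

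Other cytochrome P450 genes were also sparse. Of 103 P450 genes 31 were at 0 in every library and 34 passed the filter. Cyp4f39, an enzyme of fatty acid oxidation, led at 43.3 CPM per kilobase, followed by Cyp39a1 (4.48), an oxysterol hydroxylase, and Cyp2j12 (4.21). Cyp1b1 ranked 13 of the 34 at 1.25 CPM per kilobase, beside a median of 0.555.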
